A study of Arabidopsis thaliana with 9 samples.

Results

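The genes described here encode proteins that build or remodel the plant cell wall, expansins aside. They were taken by symbol from 21 families, as probe sets annotated to a single gene on the array. Of 22746 probe sets tested, 42 met the rule, each for a different gene, and they fall into 9 of the 21 families. The largest family is TBL (TRICHOME BIREFRINGENCE-LIKE) with 22 genes, followed by XTH (xyloglucan endotransglucosylase/hydrolase) with 9, CSLC with 4 and CSLA with 2. CSLD2, GAUT15, PME61, IRX15 and LAC16 stand alone for their families. Genes of the other 12 families, among them the cellulose synthases (CESA) and the arabinogalactan proteins (AGP and FLA), were not analysed here. Of the 41 TBL and 30 XTH symbols in the current gene table, 22 and 9 were thus reached by the rule. Others may have probe sets that are annotated under another name, to several genes or not at all.

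Mature dry seeds of Arabidopsis thaliana, freshly harvested at the end of maturation, were measured on 9 Affymetrix arrays, 3 for each of 3 genotypes labelled as having the Landsberg erecta background. Ler is the wild type, and its labels give low expression of DOG1, a gene that controls seed dormancy. In the dog1-1 mutant DOG1 expression is labelled absent, and NILDOG1, a near isogenic line with the Cvi allele of DOG1, is labelled as expressing it strongly. Each replicate was a bulk of 8 plants. The labels name 1 mutant allele and 1 introgression line, so any other difference between these lines and Ler goes with the genotype. The level of DOG1 itself was not analysed here.

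A primary plant cell wall is a mesh of cellulose fibrils and hemicelluloses, chiefly xyloglucan, xylan and mannan, embedded in pectin. XTH enzymes cut xyloglucan chains and can rejoin them, CSLC proteins make the glucan backbone of xyloglucan, and CSLA proteins make mannan backbones. TBL proteins belong to a family known mainly for polysaccharide O-acetyltransferases, in which TBL23, TBL25 and TBL26 act on mannan and TBL28, TBL30, TBL32, TBL34 and TBL35 on xylan. IRX15 takes part in xylan synthesis, GAUT15 belongs to the galacturonosyltransferases of pectin synthesis, PME61 to the pectin methylesterases and LAC16 to the laccases, copper oxidases that include lignin-polymerising enzymes. In seeds, the walls of the endosperm and coat restrain the embryo, and their loosening accompanies germination.

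All values are log2 signals, errors are standard deviations over 3 arrays unless a standard error (SE) is named, and intervals are 95% intervals. The array medians lay between 3.51 and 3.59. Ler replicate 1 (7.33) and dog1-1 replicate 3 (8.04) had a low signal for the 25S rRNA control, which was 9.86 to 11.88 on the other arrays. The difference between the 3′ and 5′ probe sets of the GAPDH control was 1.40 to 1.75 on the dog1-1 arrays. It was 0.835 to 1.11 on the Ler arrays and 1.23 to 1.36 on the NILDOG1 arrays. For the actin control the genotypes overlapped, with 4.21 to 4.90 in dog1-1, 4.32 to 4.78 in Ler and 4.16 to 4.43 in NILDOG1. The part of these differences in the results was not tested. Of the seed genes fixed as a check of the tissue, 2 of 11 were matched to a probe set with 1 gene. The rest, like unmatched genes of the other marker lists, may have probe sets annotated in another way. PAP85, a storage protein gene, was at 13.45 ± 0.066 in Ler, and M17, a maturation protein gene, at 11.58 ± 0.094. M17 fell by 1.62 in dog1-1 (adjusted p = 2.95e-05 with limma), while PAP85 was at 13.54 ± 0.030 there and did not pass.

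Most of these wall genes gave little signal in dry seeds. The TrpnX control probe sets, whose bacterial transcript seeds lack, ran from 1.82 to 2.56, and a genotype mean within that range was taken as background. By that measure 9 of the 42 genes were at background in all 3 genotypes, 7 in some and 26 in none. Only 8 had a mean above 4 over all arrays: CSLC5 (7.32), TBL23 (6.80), CSLD2 (6.71), TBL37, TBL18, TBL16, TBL25 and TBL32. None of the 9 XTH genes of the 42 was among them, and the means of these 9 probe sets ran from 2.38 to 2.73. The plot of signals by genotype shows this distribution. XTH27, outside the 42 and the plot because its listed symbol is EXGT-A3, had a mean of 6.26. Levels of different genes are not ranked against each other, since probe sets differ in how they bind.

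**Figure D1:**
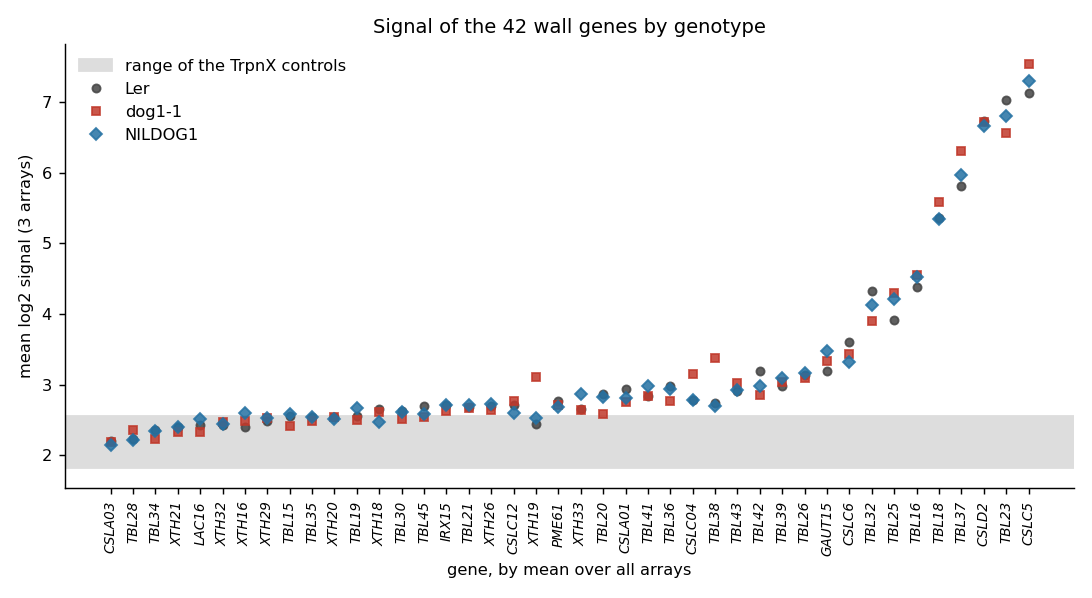
Mean log2 signal of each of the 42 wall genes (points, 3 arrays per genotype; circles Ler, squares dog1-1, diamonds NILDOG1), ordered by the mean over all 9 arrays, with the range of the TrpnX controls shaded. Most genes lie within or just above the shaded range, and 8 have a mean above 4.

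The comparison of dog1-1 with Ler asks which of these genes differ in mature seeds without DOG1. TBL38, TBL37 and CSLC5 rose in dog1-1, by 1.55-fold, 1.41-fold and 1.33-fold. XTH19, at background in Ler, rose too, to a dog1-1 mean 1.47-fold above the highest TrpnX value. TBL23 and TBL32 fell, by 1.39-fold and 1.35-fold. With limma, 6 of the 42 passed an adjusted p of 0.05 (14.3%), against 13.6% of all probe sets tested, so the share of wall genes called was close to that of the array as a whole. By direction 4 of 42 were higher, against 8.33% of all probe sets, and 2 were lower, against 5.28%. No member was called with a change of at least 2-fold, against 3.45% of all probe sets. The arrays of both genotypes did not overlap for 10 members (23.8%), against 26.9% of all probe sets: 6 were higher, against 12.9%, and 4 lower, against 14.1%. An unadjusted p under 0.05 was found for 10 members, against 25.6% of all probe sets. The median change of the members was -0.014, beside -0.040 over all probe sets. Of all calls 61.2% were higher in dog1-1, and the share was 94.2% with the arrays centred on their hybridization controls and 48.7% with them centred on their medians. Without Ler replicate 1 or without dog1-1 replicate 3, the arrays with the low 25S control, 2 members were called (TBL38 and XTH19), and without both 1 was (TBL38, adjusted p = 0.0448). In whole seeds, fewer cells of a type and less RNA per cell cannot be told apart.

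**Figure D2:**
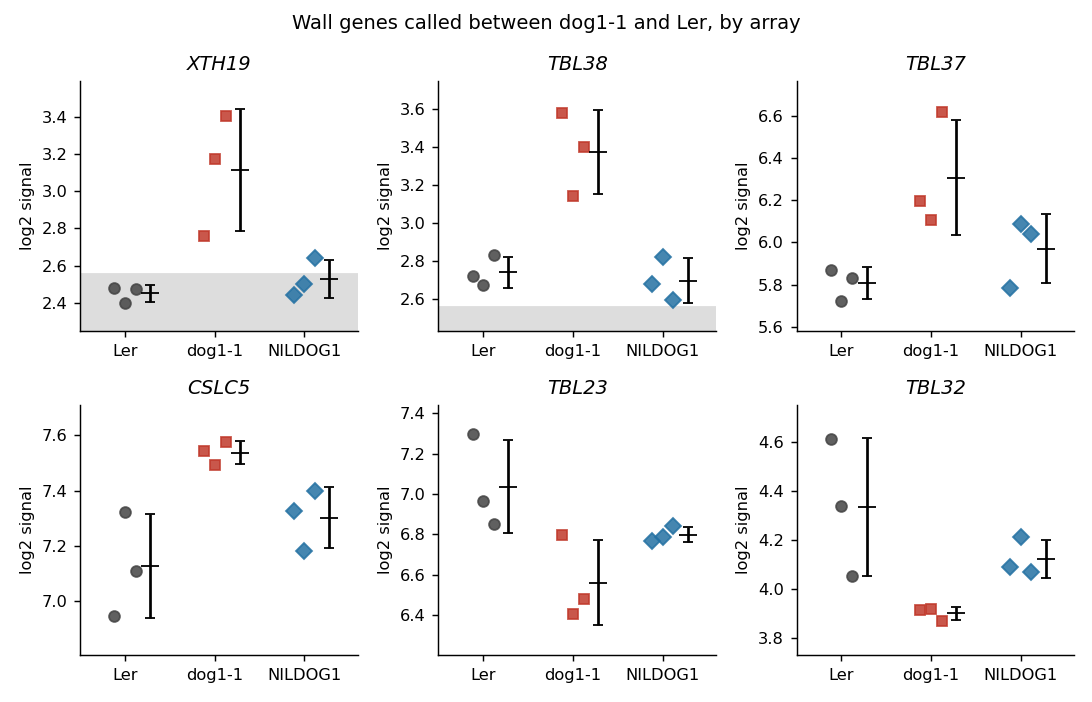
Log2 signal on each of the 9 arrays (points; left to right, replicates 1 to 3) for the 6 wall genes called between dog1-1 and Ler, with the mean ± SD of 3 arrays as bars and the range of the TrpnX controls shaded where it falls in the panel. XTH19, TBL38, TBL37 and CSLC5 are higher on all 3 dog1-1 arrays than on any other array. The NILDOG1 means of TBL37, CSLC5, TBL23 and TBL32 lie between those of Ler and dog1-1.

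Among the TBL genes TBL38 changed most. TBL38 encodes a family member reported to act on pectin in mucilage-secreting cells of the seed coat. Membership of the family does not show that it adds acetyl groups, and its activity was not analysed here. Its signals were 2.72, 2.67 and 2.83 in Ler, 3.58, 3.14 and 3.40 in dog1-1, and 2.68, 2.82 and 2.59 in NILDOG1. All 3 dog1-1 arrays lay above every other array, while those of Ler and NILDOG1 overlapped. The rise in dog1-1 was 0.63 (SE 0.12, adjusted p = 0.00351 with limma), from a Ler mean of 2.74 that is not far above the highest TrpnX value of 2.56. Of the 17 seed coat and mucilage genes fixed as markers 2 were matched to a probe set. BAN had 2.84 ± 0.10 in Ler and 2.83 ± 0.21 in dog1-1, and DFR had 2.81 ± 0.15 and 2.57 ± 0.097 (adjusted p = 0.166 with limma). Neither rose, and the 3 dog1-1 arrays of DFR lay below those of Ler and NILDOG1 (unadjusted p = 0.0390 against Ler with limma). Both genes were also not far above the highest TrpnX value. Whether BAN and DFR follow the mucilage-secreting cells, and whether those cells changed, was not tested. The mean of both ran from 2.72 to 2.92 on the Ler arrays, 2.63 to 2.83 on the dog1-1 arrays and 2.69 to 2.90 on those of NILDOG1.

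TBL37 had 5.87, 5.72 and 5.83 in Ler, 6.20, 6.11 and 6.62 in dog1-1, and 5.79, 6.09 and 6.04 in NILDOG1. Every dog1-1 array was above the arrays of both other genotypes, and replicate 3 stood highest. The rise over Ler was 0.50 (SE 0.14, adjusted p = 0.0300). It was 0.34 and no longer passed without dog1-1 replicate 3 (adjusted p = 0.117), nor did it pass without Ler replicate 1, 2 or 3 (adjusted p = 0.0514, 0.0935 and 0.0724). With a further quantile normalization it also missed the threshold (adjusted p = 0.0512 with limma). Among the dog1-1 arrays, TBL37 was highest on the one whose 25S control was low. The same held for XTH19, CSLC5 and CSLC04, while TBL38 was highest on replicate 1. The part of the low control in this was not tested.

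TBL23 and TBL32, the members of the family that fell, act on mannan and on xylan. TBL23 had 7.30, 6.96 and 6.85 in Ler, 6.80, 6.40 and 6.48 in dog1-1, and 6.77, 6.79 and 6.84 in NILDOG1. The dog1-1 arrays lay below those of Ler, with a gap of little size between dog1-1 replicate 1 and Ler replicate 3. The change was -0.48 (SE 0.13, adjusted p = 0.0331). TBL32 had 4.61, 4.34 and 4.05 in Ler, 3.92, 3.92 and 3.87 in dog1-1, and 4.09, 4.21 and 4.07 in NILDOG1, a change of -0.43 (SE 0.13, adjusted p = 0.0424). Its dog1-1 arrays were the lowest of all 9, and its Ler arrays were spread widely, with replicate 1 highest.

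Both falls lost their call with centring on the hybridization controls and without single arrays, but kept it under other scalings. The hybridization controls, bacterial and phage sequences that come ready labelled and enter with the hybridization mix, averaged 8.51 to 8.98 on the dog1-1 arrays and 8.96 to 9.39 on the Ler arrays. With each array centred on them the median change of all probe sets was 0.34 and that of the members 0.36. The changes of TBL23 and TBL32 became -0.10 (adjusted p = 0.667) and -0.0565 (adjusted p = 0.812), below that median. With centring on the array medians they were -0.53 (adjusted p = 0.01885 with limma) and -0.49 (adjusted p = 0.0204). With a further quantile normalization they were -0.50 (adjusted p = 0.0262) and -0.54 (adjusted p = 0.0186). Without Ler replicate 1 they were -0.35 (adjusted p = 0.107) and -0.29 (adjusted p = 0.122). TBL23 also missed the threshold without Ler replicate 2 or dog1-1 replicate 2 or 3 (adjusted p = 0.0573, 0.126 and 0.123) and without NILDOG1 replicate 1 or 2 (adjusted p = 0.0530 and 0.0505). It passed in 3 of the 9 fits without 1 array, and TBL32 in 1 of them. By its suffix, the probe set of TBL32 may bind transcripts of more than 1 gene.

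Of the 22 TBL genes 2 rose and 2 fell, a share called of 18.2% beside 13.6% of all probe sets (8.33% higher and 5.28% lower). Arrays did not overlap for 31.8% of them, beside 26.9% of all probe sets. The other 18 TBL genes did not pass in dog1-1. TBL25, a mannan gene like TBL23, had 3.78, 4.16 and 3.80 in Ler, 4.44, 4.17 and 4.28 in dog1-1, and 4.32, 4.32 and 4.02 in NILDOG1. Its dog1-1 arrays were all above those of Ler, the opposite side to TBL23, with a change of 0.38 (SE 0.13, adjusted p = 0.0796). It passed without Ler replicate 2 (adjusted p = 0.0276) and with centring on the hybridization controls (adjusted p = 0.00357). TBL20 and TBL42, both low in signal, had changes of -0.28 (adjusted p = 0.175) and -0.34 (adjusted p = 0.163), each with an unadjusted p under 0.05. TBL18 (5.36 ± 0.25 in Ler, 5.59 ± 0.086 in dog1-1) and TBL16 (4.38 ± 0.32 and 4.56 ± 0.047) had changes of 0.23 and 0.18. Changes of the 22 genes ran from -0.48 to 0.63, with a median of -0.050.

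Among the backbone synthases CSLC5 rose. It had 6.95, 7.32 and 7.11 in Ler, 7.54, 7.49 and 7.57 in dog1-1, and 7.33, 7.18 and 7.40 in NILDOG1. The dog1-1 arrays were close together and above all others, and NILDOG1 overlapped Ler. The change was 0.41 (SE 0.11, adjusted p = 0.0269). It missed the threshold without Ler replicate 1 or 3 (adjusted p = 0.0854 and 0.0762) and without dog1-1 replicate 1, 2 or 3 (adjusted p = 0.0591, 0.0565 and 0.0951). With centring on the array medians it missed the threshold as well (adjusted p = 0.0576 with limma).

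CSLC04, a second maker of xyloglucan backbone, had 2.81, 2.85 and 2.67 in Ler, 3.15, 2.98 and 3.32 in dog1-1, and 2.89, 2.63 and 2.85 in NILDOG1. Its dog1-1 arrays were above all others, and its change of 0.37 (SE 0.12) missed the threshold (adjusted p = 0.0540). It passed with a mean-variance trend (adjusted p = 0.0481), with a further quantile normalization (adjusted p = 0.0418), with centring on the hybridization controls (adjusted p = 0.00401) and without dog1-1 replicate 2 (adjusted p = 0.0353). CSLC12 and CSLC6 had changes of 0.060 and -0.18, which did not pass. CSLD2, of a clade known for tip-growing cells, was at 6.74 ± 0.12 in Ler, 6.73 ± 0.055 in dog1-1 and 6.66 ± 0.26 in NILDOG1, with an interval of -0.29 to 0.26 for the change in dog1-1. The mannan synthase genes CSLA01 and CSLA03 had changes of -0.19 and -0.012, the second at background in every genotype.

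Of the 9 XTH genes 1 rose, 0 fell and 8 did not pass, a share called of 11.1% beside 13.6% of all probe sets. XTH19 had 2.48, 2.40 and 2.47 in Ler, 2.76, 3.17 and 3.41 in dog1-1, and 2.44, 2.50 and 2.64 in NILDOG1. Ler and NILDOG1 were at background, and all 3 dog1-1 arrays were above it. The fitted change was 0.66 (SE 0.14, interval 0.35 to 0.97, adjusted p = 0.00742 with limma). The dog1-1 mean of 3.11 was 1.47-fold above the highest TrpnX value, a figure that leaves out the spread of the arrays. XTH18, the next gene on the chromosome with no protein-coding gene between them, had 2.66 ± 0.048 in Ler and 2.62 ± 0.15 in dog1-1 (change -0.038, interval -0.25 to 0.18). How far the probe sets of these related genes bind each other's transcripts was not tested. The remaining 7 XTH genes had mean signals of 2.38 to 2.73 and changes from -0.071 to 0.086.

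XTH27, listed in the gene table under the symbol EXGT-A3 (AT2G01850) and therefore outside the 42, was also higher in dog1-1. It had 6.05, 5.75 and 6.12 in Ler, 7.12, 6.74 and 6.81 in dog1-1, and 5.84, 5.80 and 6.12 in NILDOG1. The dog1-1 arrays were all above the rest, and Ler and NILDOG1 overlapped. The rise was 0.92 (SE 0.14, adjusted p = 7.19e-04), 1.89-fold. Of the 6 other genes outside the 42 whose symbol has letters after the number or whose older name belongs to these families, 0 passed with limma: IRX15-L, GUT2 (IRX10), ATCSLC08, ATPMEPCRB (PME41), AT4G02300 (PME39) and AT2G31110 (TBL40, with 2 probe sets). Of these AT4G02300 had an unadjusted p under 0.05 (change -0.28, adjusted p = 0.166).

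The pectin, xylan and laccase genes that stand alone did not pass. GAUT15 had 2.83, 3.40 and 3.34 in Ler, 3.40, 3.06 and 3.56 in dog1-1, and 3.40, 3.62 and 3.40 in NILDOG1. Its genotypes overlapped, and the change in dog1-1 was 0.15 (interval -0.21 to 0.51). LAC16 had 2.49, 2.18 and 2.63 in Ler, 2.38, 2.39 and 2.24 in dog1-1, and 2.43, 2.56 and 2.54 in NILDOG1. Its means were at background in every genotype, and its change in dog1-1 was -0.098 (interval -0.35 to 0.16). PME61 had a change of -0.058 and IRX15 of -0.085. Sorted by polymer, a grouping made after the values were seen and read against 8.33% of all probe sets higher and 5.28% lower, 2 of 13 xyloglucan genes (XTH19 and CSLC5) rose and 0 fell. Of the 5 mannan genes 0 rose and 1 fell (TBL23), and of the 6 xylan genes 0 rose and 1 fell (TBL32). A difference between the polymers was not tested.

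Other wall genes fixed as lists were few. Of 18 expansin genes, which loosen walls without cutting chains, 4 rose, 1 fell and 13 did not pass. The share called was 27.8%, against 13.6% of all probe sets, of which 8.33% were higher and 5.28% lower. EXPA15 rose most, from 4.53 ± 0.21 to 6.48 ± 0.43 (adjusted p = 4.07e-05 with limma). BGAL16, a beta-galactosidase gene, rose from 4.03 ± 0.34 to 4.80 ± 0.15 (adjusted p = 0.00398), with all 3 dog1-1 arrays above those of Ler and NILDOG1. ADPG1, a polygalacturonase gene, and the lignin pathway genes CCR2 and 4CL8 did not pass. PGL34 and PRP39 matched the lists by name but encode a plastoglobulin and an RNA-processing factor. The 13 transcriptional regulators of wall formation on the list were not analysed here.

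Markers of other tissues differed as well. Of 9 green tissue genes 3 were matched to a probe set: RCA rose by 1.52 and LHCB4.2 by 0.50, while LHCB4.1 fell by 0.62. The mean of these 3, which did not move together, ran from 6.29 to 6.51 on the Ler arrays. It ran from 6.73 to 6.91 on the dog1-1 arrays and from 6.32 to 6.53 on those of NILDOG1. Of 9 endosperm genes 2 were matched to a probe set: IKU2 fell from 4.03 ± 0.087 to 3.61 ± 0.15, and AGL62 was at background in all 3 genotypes. Their part in the changes of the wall genes was not tested.

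**Figure D3:**
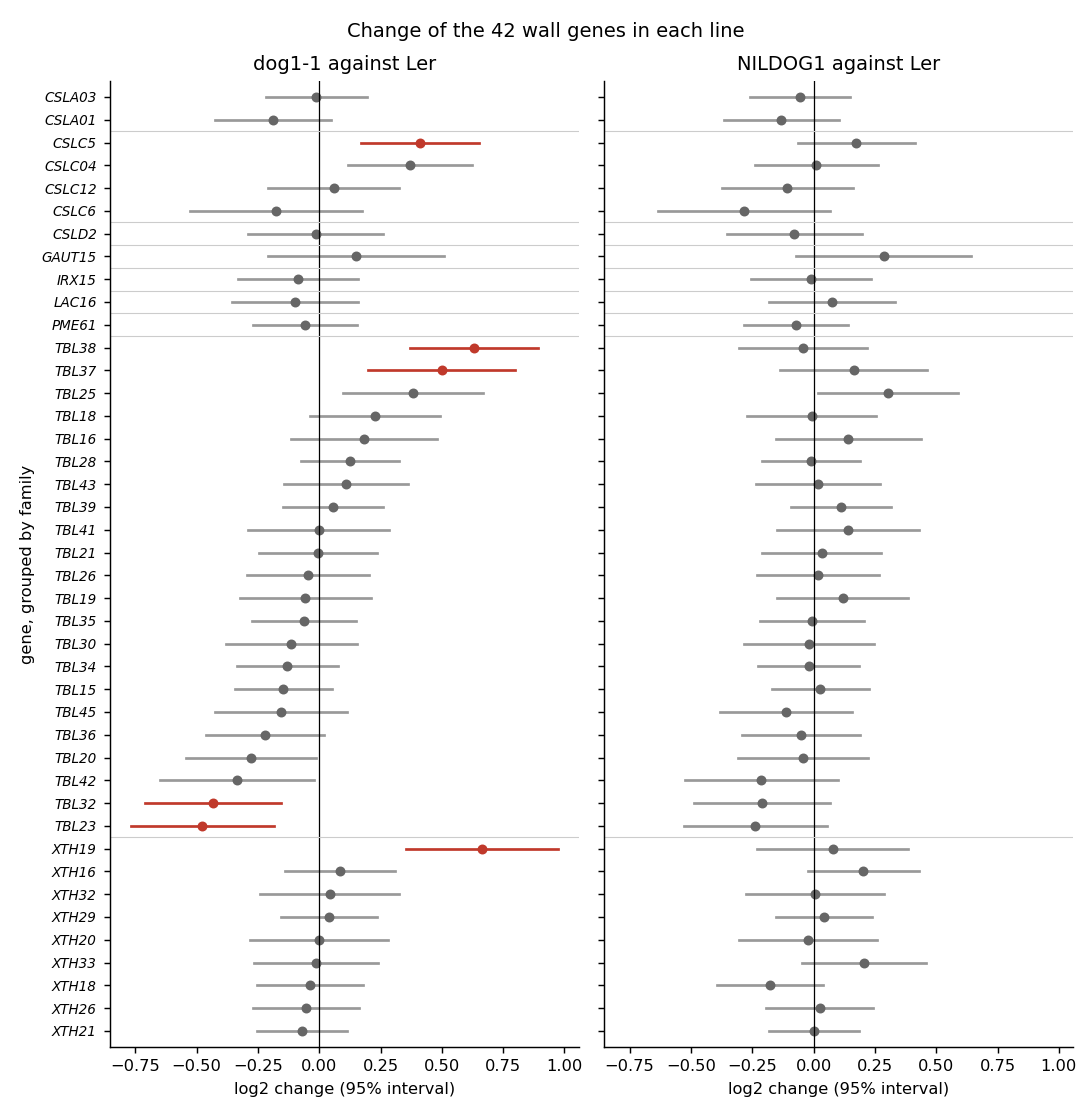
Log2 change with its 95% interval for each of the 42 wall genes in dog1-1 (left) and NILDOG1 (right), both against the same 3 Ler arrays, grouped by family; red marks an adjusted p under 0.05. In dog1-1, 4 genes rose and 2 fell, and the fitted 0.66 of XTH19 starts from a Ler mean at background; in NILDOG1 none was called and the changes ran from -0.29 to 0.30.

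NILDOG1 against Ler sets seeds with the strong Cvi allele of DOG1 beside the wild type. No wall gene passed with limma (0 of 42, against 0.545% of all probe sets), and 1 had an unadjusted p under 0.05 (TBL25), against 5.9% of all probe sets. A change of at least 2-fold was called for 0 members, against 0.312% of all probe sets. The changes ran from -0.29 (CSLC6) to 0.30 (TBL25), with a median of -0.0026, beside -0.0018 over all probe sets. The 95% intervals of the 42 genes lay between -0.6353 and 0.6425, which sets no limit on a change for the 9 genes at background in every genotype. The arrays did not overlap for 2 genes, TBL23 and XTH18 (4.76%, against 9.32% of all probe sets). Both were lower in NILDOG1 (against 4.47% of all probe sets, with 0 members higher against 4.84%), with changes of -0.24 (adjusted p = 0.918) and -0.18 (adjusted p = 0.916). Of all calls 58.9% were higher in NILDOG1, and 84% with the arrays centred on the hybridization controls, where the median of all probe sets was 0.18.

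The change of TBL25 was 0.30 (SE 0.13, adjusted p = 0.800). The genes called in dog1-1 had changes of 0.078 for XTH19 (interval -0.23 to 0.39), -0.044 for TBL38 (-0.31 to 0.22), 0.16 for TBL37, 0.17 for CSLC5, -0.24 for TBL23 and -0.21 for TBL32 in NILDOG1. These share the Ler arrays with the changes in dog1-1. XTH20 (AT5G48070) and LAC16 (AT5G58910) lie on the arm of chromosome 5 that holds DOG1 (AT5G45830). Both were at background in all 3 genotypes, so their values set no limit on a change.

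NILDOG1 against dog1-1 sets the strongest labelled DOG1 expression against its absence. TBL38 was 1.60-fold lower in NILDOG1 (change -0.68, SE 0.12, adjusted p = 0.00228), and XTH19 was lower too, with a fitted change of -0.58 (SE 0.14, adjusted p = 0.0164), with a NILDOG1 mean at background. These were 2 of 42 members (4.76%), against 12.5% of all probe sets tested. Both were lower, against 7.52% of all probe sets, and 0 were higher, against 4.94%. Neither change reached 2-fold, against 3.43% of all probe sets called at that size. An unadjusted p under 0.05 was found for 4 members, against 23.6% of all probe sets. For 10 members (23.8%) the arrays did not overlap, against 27% of all probe sets: 4 were higher in NILDOG1, against 14.4%, and 6 lower, against 12.6%. The median change was 0.049, beside 0.036 over all probe sets. Of all calls 39.6% were higher in NILDOG1, and 16.5% and 50.3% with the arrays centred on the hybridization controls and on their medians.

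TBL38 and XTH19 were also the members of smallest adjusted p between dog1-1 and Ler, a comparison that shares the dog1-1 arrays. XTH19 no longer passed without dog1-1 replicate 2 or 3 (adjusted p = 0.0611 and 0.0722) or NILDOG1 replicate 1 or 2 (adjusted p = 0.0716 and 0.0560). CSLC04 (change -0.36, adjusted p = 0.0656, and 0.0414 without dog1-1 replicate 2) and TBL37 (change -0.34, adjusted p = 0.152) had an unadjusted p under 0.05 without passing. CSLC5 had a change of -0.24 in NILDOG1 (interval -0.48 to 0.0041), and TBL23 and TBL32 had changes of 0.24 and 0.22, with intervals of -0.052 to 0.53 and -0.055 to 0.50. None of these 3 changes passed, although the arrays of CSLC5 and TBL32 did not overlap. XTH27 (EXGT-A3) was 1.95-fold lower in NILDOG1 (change -0.97, SE 0.14, adjusted p = 4.85e-04).

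**Figure D4:**
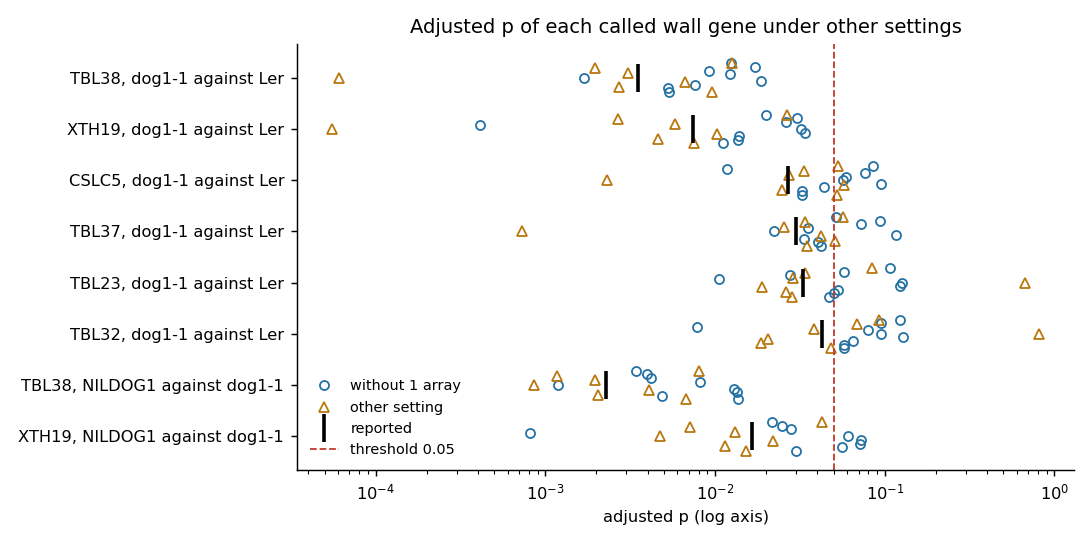
Adjusted p (log axis) of each wall gene called, as reported (bar), in the 9 fits that leave out 1 array (circles) and in up to 7 other settings (triangles), with the threshold of 0.05 dashed. TBL38 stays left of the line in all of them for both comparisons and XTH19 for dog1-1 against Ler, while each of the other 4 genes crosses it in several.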

How the data were processed

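Biotin-labelled RNA of dry seeds was hybridized to 9 arrays. The authors deposited a log2 signal for each probe set on every array. RMA is the method that the submitters' processing notes name, with no version, and the base of the logarithm was taken from the range of the values. The files hold no detection calls. Probe sets were named through the platform annotation and a current gene table (13513 with 1 gene, 503 with several, 8730 not listed; 77 of the first not in the gene table). With 64 controls left out, all 22746 probe sets were fitted with limma 3.58.1 in R 4.3.3 (genotype as the only term, 6 residual degrees of freedom), and p-values were adjusted by Benjamini-Hochberg over all of them, with a threshold of 0.05. Plants were grown in blocks per the labels' protocols, but no label links a replicate number to a block, and deviations of same-numbered arrays correlated at -0.23 to 0.030 (0 of 9 pairs over 0.1). No arrays were identical (correlations within genotypes 0.992 to 0.996).

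Genes with values by array are those called in a comparison (up to 5 rises and 5 falls) and, for role groups without a call, the one of highest mean (GAUT15, LAC16). Further genes were named with their values known. The members and lists were chosen with earlier results of these data known. On simulated data for dog1-1 against Ler (22746 probe sets, 200 changed), 43.0% of changes of 0.5, 91.3% of 1 and 99.8% of 2 were recovered, with 8.2 false calls on average. The real comparison called 3095 probe sets, and the adjusted threshold depends on how many change, so these rates do not carry over to it.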

Additional observations from a re-analysis of the deposited data

How the results depend on the processing

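The rise of TBL38 in dog1-1 and its lower signal in NILDOG1 than in dog1-1 kept their direction and their call in all 16 refits (7 other settings, 9 without 1 array), and so did the rise of XTH19 (adjusted p from 5.54e-05 to 0.0338). In dog1-1 against Ler the count of 6 fell to 2 (TBL38 and XTH19) with only the 6 arrays compared, and to 0 with a log2 change of at least 1 required. It ran from 2 to 5 without 1 array, with 2 without Ler replicate 1 or dog1-1 replicate 3. Without both of these arrays, a choice made after seeing the data, 1 member was called (TBL38, adjusted p = 0.0448), and XTH19 had 0.53 (adjusted p = 0.0590). Centring on the hybridization controls gave 8 higher and 0 lower, with TBL25, CSLC04, TBL16 and TBL18 added, and 94.2% of all calls higher against 61.2%. Centring on array medians gave 3 higher and 2 lower, with 48.7% of all calls higher. With the replicate block 5 members were called and CSLC5 missed the threshold (adjusted p = 0.0526). In NILDOG1 against Ler the count was 0 under every setting. In NILDOG1 against dog1-1 the count of 2 was 0 with a log2 change of at least 1 required, 1 without Ler replicate 1 and dog1-1 replicate 3 together (TBL38), 1 to 2 without 1 array and 2 with the replicate block. Counting older symbols as members gave 7, 0 and 3 calls. No direction of a called gene turned, and the causes of the lost calls were not tested. The number of arrays and the low signal of most members limit what could be seen.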

Other observations

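The deposited values repeat exactly between arrays for many probe sets. A value stood on more than 1 array for 20 of the 42 wall genes (47.6%), against 50.8% of all probe sets tested, and on at least 3 arrays for 13 of the 42, against 5103 of all 22746. XTH29 and PME61 had the same value on 5 of 9 arrays. The 3 Ler arrays of XTH29 and the 3 NILDOG1 arrays of PME61 were among these, so the spread of that group was 0 for each.

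Several wall genes lie next to each other on a chromosome. Besides XTH18 and XTH19, these are TBL28 with TBL30 and TBL21 with TBL19, each pair with 0 protein-coding genes between them in the gene table. In dog1-1 against Ler TBL28 and TBL30 had changes of 0.13 and -0.11, and TBL21 and TBL19 of -0.0045 and -0.056. TBL28 was at background in all 3 genotypes, and TBL30 and TBL19 in some. None of these 4 passed with limma, and 0 of them had an unadjusted p under 0.05.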
